A study of Mus musculus with 9 samples.

Results

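Sorl1, Sort1 and 7 receptors of the LDL receptor family were followed in cultured mouse beige adipocytes of 2 inbred strains and their F1 offspring. Sorl1 was included because it had the largest fall among all tested genes in the 129 strain relative to B6. Sort1, Vldlr, Lrp1, Lrp4, Lrp5, Lrp6, Lrp8 and Lrp10 were chosen by name as its relatives. All 9 symbols were found, of 24013 gene symbols in all. The B6 libraries were labelled C57BL6/J and the 129 libraries 129X1/SvJ. Each strain and the F1 offspring had 3 libraries. The cells came from the stromal vascular fraction of inguinal fat, the subcutaneous depot at the groin, and were taken at day 7. All groups had the same culture. Confluent cells were induced for 48 h with 0.5 mM isobutylmethylxanthine, 125 nM indomethacin and 1 µM dexamethasone, and serum (10%), insulin (850 nM), T3 (1 nM) and rosiglitazone (1 µM) were present during and after induction. Because rosiglitazone, an agonist of the fat cell regulator PPARγ, was given to every group, no group shows the strains without it. The labels give neither the age or sex of the mice nor the direction of the cross. Nothing in them tells whether replicate libraries came from separate animals or cultures, so p-values reflect the spread among these libraries only, and that spread may be technical.

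SorLA, the protein of Sorl1, carries a Vps10p domain together with repeats of the LDL receptor type, and sortilin, the protein of Sort1, carries the Vps10p domain. Both move cargo between the Golgi, endosomes and the cell surface with the help of retromer and GGA adaptors. In neurons SorLA carries the amyloid precursor protein, and in adipocytes it returns internalised insulin receptor to the surface. Sortilin takes part in forming the vesicles that store the glucose transporter GLUT4. The LDL receptor relatives divide into endocytic receptors for lipoproteins and protease complexes, reelin receptors, and the Wnt co-receptors Lrp5 and Lrp6.

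B6 libraries held 19130022 to 26931438 assigned reads, 129 libraries 23710908 to 28473083 and F1 libraries 39686986 to 53410947, so every F1 library was deeper than every parental one. Levels are given as RPKM, reads per kilobase of exon per 1000000 assigned reads, with SD over 3 libraries. Tests used limma on log2(RPKM + 1) over the 11542 genes with an RPKM of at least 1 in at least 3 libraries, with Benjamini-Hochberg adjustment over all of them and a threshold of 0.05. Of the 9 members 7 passed that filter, and Lrp4 and Lrp8 did not. For single genes, an exact two-sided permutation test of 3 libraries against 3 cannot give a p below 0.1. That smallest value, which marks groups that do not overlap, was reached by 4 of the 8 members other than Sorl1 between 129 and B6, by 4 of 8 between F1 and B6 and by 3 of 8 between F1 and 129. Of all tested genes 49.9%, 44.2% and 44.5% did not overlap in these comparisons. The 8 members include Lrp4 and Lrp8, which are not among the tested genes. Lrp4 reached the smallest value in each comparison, and Lrp8 in none. The adipocyte marker Adipoq, which encodes adiponectin, was abundant in every group, at 1508 RPKM in B6, 1289 in 129 and 1350 in F1. Between 129 and B6 37.5% of all tested genes passed the threshold, between F1 and B6 31.2% and between F1 and 129 27.7%.

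The order of the 9 genes by RPKM in B6 was Lrp1, Sort1, Lrp10, Sorl1, Vldlr, Lrp6, Lrp5, Lrp4 and Lrp8, and no 2 neighbours in that order overlapped in their library values. The order in 129 was the same except for Sorl1, which stood between Lrp4 and Lrp8, again without overlap between neighbours. In F1 Sorl1 stood between Lrp5 and Lrp4, and Lrp6 and Lrp5 overlapped. By mean RPKM among the 24013 symbols, Sorl1 ranked 2219 in B6, 5707 in F1 and 13029 in 129. For the other members rank moved far less, with Lrp1 at 792, 951 and 788 and Sort1 at 1095, 1397 and 1420 in the same groups.

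**Figure D1:**
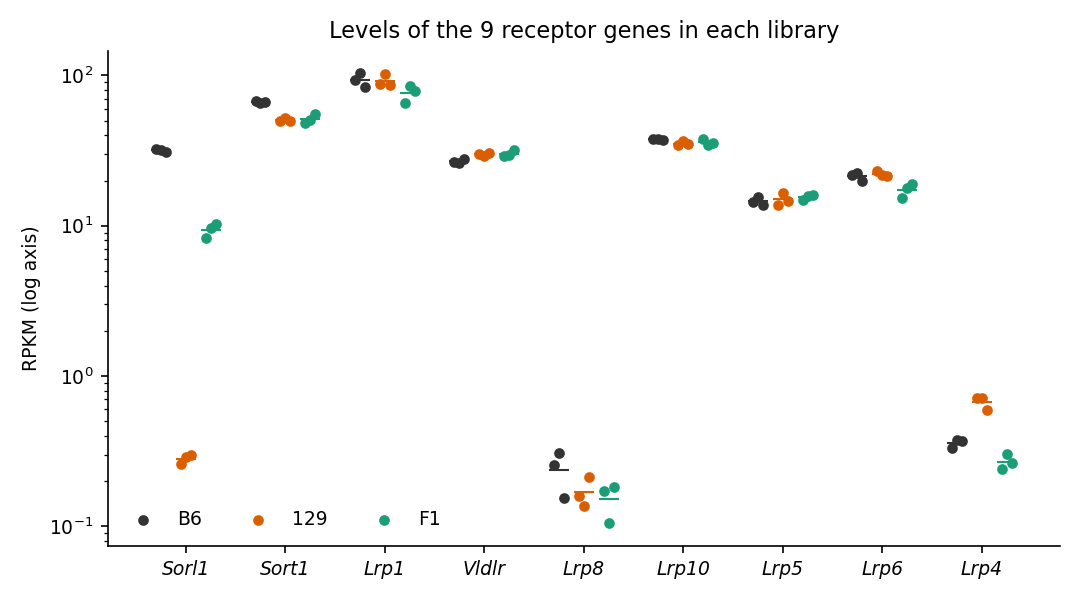
RPKM of the 9 receptor genes in each of the 9 libraries, on a log axis, with 1 point per library and a line at each group mean. The Sorl1 points run from 0.260 in 129 to 32.3 in B6, a far wider span than that of any other gene. Lrp4, the next widest at 0.241 to 0.719, and Lrp8 are also spread on this axis, and the points of the 6 others stay close together.

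Sorl1 (mm9 chromosome 9, 41776572 to 41932372, minus strand, 48 exons) read 32.3, 32.0 and 31.0 RPKM in the B6 libraries. In 129 it read 0.260, 0.289 and 0.298 RPKM. In F1 it read 8.29, 9.69 and 10.2 RPKM. The 3 groups were separated by wide gaps, with F1 between the parents. The means were 31.8 ± 0.660 in B6, 0.282 ± 0.0195 in 129 and 9.41 ± 1.01 in F1 (SD, n = 3), so the B6 mean was 112 times the 129 mean. Behind these values stood 5744, 4244 and 5794 reads in B6 and 43, 57 and 49 in 129, so the gene was detected in every 129 library. The F1 libraries held 2283, 3590 and 3570 Sorl1 reads. The difference of 129 minus B6 was -4.67 on the log2(RPKM + 1) scale (SE 0.06). It is a description with no test, because this difference chose the gene. The pseudocount of 1 compresses it, and with a pseudocount of 0.1 it was -6.38. The next gene in that ranking was Cela1, which encodes an elastase, at -3.11, with a mean of 20.9 RPKM in B6 and 1.55 in 129. In bulk RNA, fewer cells that express a gene and less RNA per cell cannot be told apart.

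Because Sorl1 and its neighbour Sc5d had related patterns (given after the sequences), their start regions are shown first, from RefSeq on GRCm38.p6, the C57BL/6J reference. The deposited values use mm9, so these coordinates are not those of the deposited gene models. Each sequence runs from 250 bases before to 50 bases after a start site, 5′ to 3′ on the gene's strand. RefSeq holds 2 starts for Sorl1, one upstream and one inside the gene, and which of them the reads came from was not measured. An entry was found for 5 of the 9 members. Capitals mark 3 motifs on either strand: the E-box CACGTG, the GC box GGGCGG, and TTGGC, the core letters bound by the NFI family that the series title names. A motif on the other strand stands in capitals as its reverse complement, and no pair of them overlapped.
Sorl1 upstream start, chr9:42124248-42124547, minus strand: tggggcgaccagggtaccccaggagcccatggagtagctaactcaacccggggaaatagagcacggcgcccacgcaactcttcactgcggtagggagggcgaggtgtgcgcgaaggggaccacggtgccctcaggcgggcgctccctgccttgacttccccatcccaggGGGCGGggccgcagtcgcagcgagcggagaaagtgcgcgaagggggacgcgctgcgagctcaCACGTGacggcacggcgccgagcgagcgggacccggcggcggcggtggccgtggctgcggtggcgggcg
Sorl1 internal start, chr9:42077164-42077463, minus strand: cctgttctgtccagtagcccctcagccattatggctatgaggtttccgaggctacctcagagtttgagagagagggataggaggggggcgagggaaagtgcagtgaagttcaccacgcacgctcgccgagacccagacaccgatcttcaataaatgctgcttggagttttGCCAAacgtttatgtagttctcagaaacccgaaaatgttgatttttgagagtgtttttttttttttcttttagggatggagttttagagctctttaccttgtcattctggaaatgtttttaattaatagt
Sc5d start, chr9:42264251-42264550, minus strand: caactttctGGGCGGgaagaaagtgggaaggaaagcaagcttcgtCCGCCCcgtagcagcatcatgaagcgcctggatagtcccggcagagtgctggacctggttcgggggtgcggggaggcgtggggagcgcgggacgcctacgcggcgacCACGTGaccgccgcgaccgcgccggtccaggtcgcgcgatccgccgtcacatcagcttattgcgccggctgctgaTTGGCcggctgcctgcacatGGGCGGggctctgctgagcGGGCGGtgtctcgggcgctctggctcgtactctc
The upstream Sorl1 window had a GC content of 72.3% and held 1 E-box at position -19 and 1 GC box at -81, counted from the start site to the first letter of the match. The internal window had a GC content of 44%, and TTGGC was found there on the other strand at -80. The Sc5d window had a GC content of 68.3% and held 1 E-box at -98, 1 TTGGC at -23 and 4 GC boxes. Of all 32851 RefSeq start windows, 7.15% held the E-box, 35.7% the GC box and 46.7% TTGGC. The full palindrome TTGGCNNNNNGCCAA stood in 0.0365% of the windows and in none of the members' windows. A match describes letters only, and the 129 sequence of these windows was not examined.

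Sorl1 in F1 lay far from both parents. It was lower in F1 than in B6 by a log2 difference of -1.66 (SE 0.06, limma adjusted p = 7.69e-08), a ratio of mean RPKM of 0.296. It was higher in F1 than in 129 by 3.02 (SE 0.06, limma adjusted p = 2.46e-09), a ratio of 33.3. The latter difference was 4.63 with a pseudocount of 0.1 and 5.04 with voom on recovered reads. All 3 F1 libraries were on the same side in both comparisons. Both comparisons share the parental libraries on which Sorl1 was chosen, so their p-values are not independent of that choice. Placed on a line from the 129 mean (0%) to the B6 mean (100%), the F1 libraries stood at 25.5%, 29.9% and 31.7%, a mean of 29.0% ± 3.19 (SD, n = 3). None reached midway.

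The side of the mid-parent on which Sorl1 fell depended on the scale of averaging. The parental mean of RPKM was 16.0, and F1 was lower than it, by a log2 difference of -0.71 (SE 0.06, limma adjusted p = 6.58e-05). The parental mean of log2(RPKM + 1) corresponds to 5.48 RPKM, and F1 was higher than that, by 0.68 (SE 0.06, limma adjusted p = 4.52e-05). The size of the latter depends on the pseudocount, since it was 1.44 with a pseudocount of 0.1 and 1.64 with voom on recovered reads. Both mid-parents are built from the parental libraries that chose Sorl1, so neither p-value is independent of that choice. Only 2 of the 11542 tested genes (0.0173%) lay above the log2 mid-parent and below the RPKM mid-parent with both differences past the threshold. The other was Abhd1, a gene of the alpha/beta hydrolase family, named after its values were seen, with 0.773 RPKM in B6, 13.6 in 129 and 5.63 in F1. The gap between the mid-parents widens with the parental difference, on which Sorl1 was chosen. The count of 2 therefore does not show that the F1 level of Sorl1 was unusual. Reads were not split by parental allele, so the share of F1 Sorl1 RNA from each allele was not measured.

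**Figure D2:**
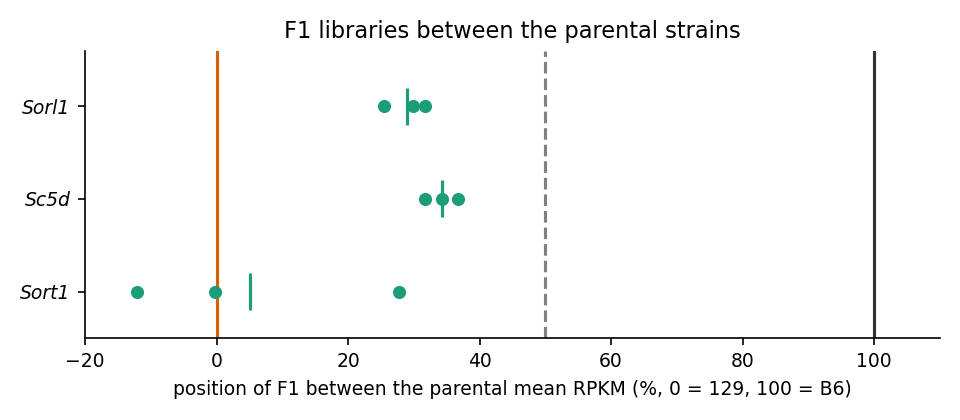
Position of each F1 library between the parental mean RPKM values, in percent (129 mean at 0, B6 mean at 100), for Sorl1, Sc5d and Sort1, with a tick at the mean and a dashed line midway. The Sorl1 points stand at 25.5, 29.9 and 31.7 and the Sc5d points at 31.7, 36.7 and 34.4, all left of midway, while Sort1 runs from -12.1 to 27.8 around the 129 mean.

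Within 500 kb of Sorl1 there were 9 other rows, of which 3 were expressed enough to be tested. Sc5d encodes sterol C5-desaturase, a late enzyme of cholesterol synthesis, and it lies 129.9 kb from Sorl1 on the side of the upstream start (mm9 chromosome 9, 42062260 to 42072383, minus strand). It read 211, 201 and 212 RPKM in B6, 51.8, 47.7 and 52.6 in 129, and 101, 108 and 105 in F1. As for Sorl1, the groups did not overlap and F1 was intermediate. Sc5d was lower in 129 than in B6 by -2.02 (SE 0.05, limma adjusted p = 5.31e-10). F1 was lower than B6 by -0.99 (limma adjusted p = 4.79e-07) and higher than 129 by 1.03 (limma adjusted p = 4.38e-07). Sc5d in F1 did not differ past the threshold from the log2 mid-parent (0.02, SE 0.04, limma adjusted p = 0.733). It was below the RPKM mid-parent, as was Sorl1, by -0.30 (SE 0.04, limma adjusted p = 9.98e-04). Whether Sorl1 and Sc5d differ in their distance from either mid-parent was not tested. The F1 libraries of Sc5d stood at 31.7%, 36.7% and 34.4% of the way from 129 to B6.

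The other tested neighbours did not share this pattern. Tbcel, which encodes a tubulin-binding cofactor-like protein, had means of 8.68 ± 0.0129 RPKM in B6, 8.49 ± 0.350 in 129 and 7.30 ± 0.271 in F1. It did not pass between 129 and B6 (-0.03, limma adjusted p = 0.639), and in F1 it was below B6 by -0.22 (limma adjusted p = 0.00366) and below 129 by -0.19 (limma adjusted p = 0.00902). The clone 2610203C20Rik had a mean of 12.2 RPKM in all 3 groups. The remaining 6 neighbours, Tecta, Grik4, 4930546K05Rik and 3 microRNA genes, were below 1 RPKM in every library. In a wider window of 5000 kb to either side, added after the values were seen, 60 genes were tested. Of these 8 were higher and 14 lower in 129, which is 36.7% of them and near the 37.5% of all tested genes. Only Sc5d and Cbl, a ubiquitin ligase gene at 2025 kb, were more than 2-fold lower on the log2(RPKM + 1) scale, and none was 2-fold higher. Cbl fell by 1.07 (limma adjusted p = 2.04e-05), from 8.75 ± 0.341 RPKM in B6 to 3.65 ± 0.256 in 129, with 5.04 in F1.

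**Figure D3:**
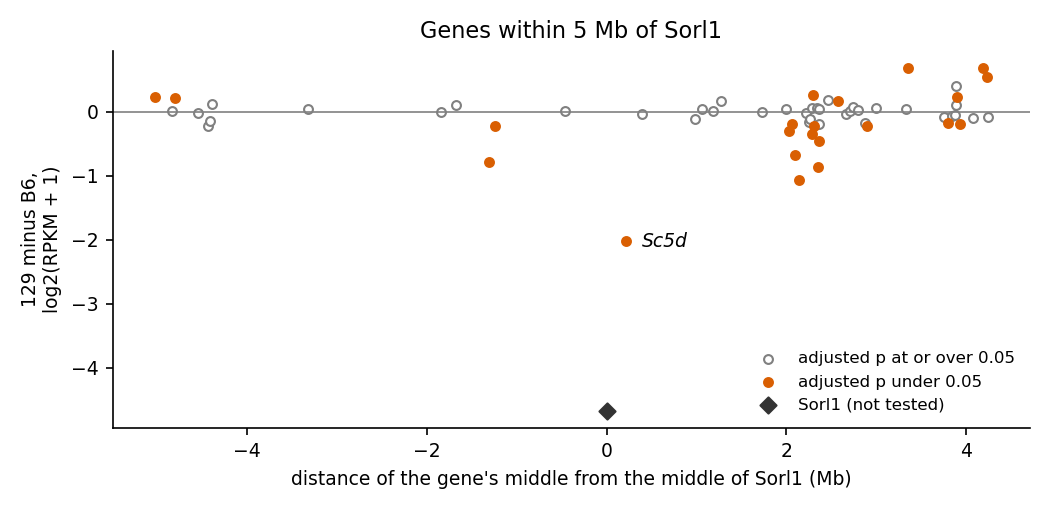
Difference of 129 minus B6 in log2(RPKM + 1) for tested genes within 5 Mb of Sorl1, against the distance between gene middles in Mb. Filled points have an adjusted p under 0.05, and the Sorl1 diamond is not tested. Sc5d at -2.02 is the nearest filled point to Sorl1 and the lowest of the tested neighbours.

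Sort1, the other Vps10p receptor of the set, showed a smaller difference of another shape (mm9 chromosome 3, 108086982 to 108164437, plus strand). It read 67.8, 65.7 and 66.8 RPKM in B6, 49.6, 51.8 and 50.1 in 129, and 48.5, 50.5 and 55.0 in F1. The B6 libraries were above all others, and the 129 and F1 libraries overlapped. The mean of 129 was 0.756 times that of B6, a log2 difference of -0.40 (SE 0.05, limma adjusted p = 8.82e-05). F1 was below B6 by -0.38 (SE 0.05, limma adjusted p = 2.48e-04) and did not pass against 129 (0.02, SE 0.05, limma adjusted p = 0.783). F1 was below the mid-parent on both scales, by -0.18 for log2 values (limma adjusted p = 0.0123) and by -0.19 for RPKM (limma adjusted p = 0.00843). The first of these did not hold without F1 replicate 1, where it was -0.14 (limma adjusted p = 0.0537). Between 129 and the B6 mean, the F1 libraries of Sort1 stood at -12.1%, -0.186% and 27.8%, so Sort1 RNA in F1 was near the 129 level while Sorl1 RNA was well above it.

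Of the 3 remaining Vps10p genes, the neuronal receptors Sorcs1 and Sorcs3 were too low to test. Sorcs2 had means of 1.17 ± 0.0575 RPKM in B6, 0.602 ± 0.114 in 129 and 0.660 ± 0.129 in F1. It was lower in 129 by -0.44 (SE 0.08, limma adjusted p = 0.00156) and in F1 by -0.39 (limma adjusted p = 0.00463), both against B6. Sorcs2 passed the filter only through its B6 libraries, since no 129 or F1 library reached 1 RPKM. The filter thus favours a fall against B6, and these p-values are not independent of it. As for Sort1, the F1 libraries of Sorcs2 overlapped those of 129.

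Among the endocytic receptors, Lrp1 had the highest RPKM of the set in every group. It takes up remnant lipoproteins that carry ApoE, alpha-2-macroglobulin and complexes of proteases with their inhibitors (mm9 chromosome 10, 126975214 to 127058204, minus strand, 89 exons). It read 92.9, 103 and 84.1 RPKM in B6, 87.6, 102 and 85.9 in 129, and 65.9, 84.9 and 78.9 in F1. The parental libraries overlapped, and the F1 mean was the lowest, with F1 libraries below all 129 libraries but overlapping B6. The difference between 129 and B6 was -0.03 (SE 0.10, limma adjusted p = 0.867). F1 minus B6 was -0.29 (SE 0.10, limma adjusted p = 0.0566) and F1 minus 129 was -0.26 (SE 0.10, limma adjusted p = 0.0861). The former passed with a mean RPKM of at least 5 (limma adjusted p = 0.0473), with voom (0.0306), without B6 replicate 3 (0.0359) and without F1 replicate 2 (0.0348), and the latter passed without F1 replicate 2 (0.0490). F1 was below the log2 mid-parent by -0.27 (SE 0.09, limma adjusted p = 0.0489), a call lost by rescaling the libraries (limma adjusted p = 0.0782), with no filter (0.192) and with a pseudocount of 0.1 (0.0501). It was also lost on leaving out any library but B6 replicate 3 or F1 replicate 2 (limma adjusted p = 0.0535 to 0.207).

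Vldlr, which binds triglyceride-rich lipoproteins and reelin, was 1 of the 2 other members past the threshold between the strains, and the difference was small (mm9 chromosome 19, 27291510 to 27328721, plus strand). It read 26.7, 26.2 and 27.7 RPKM in B6, 29.8, 29.1 and 30.5 in 129, and 28.9, 29.4 and 31.9 in F1. All 129 and all F1 libraries were above all B6 libraries. The rise in 129 was 0.15 (SE 0.05, limma adjusted p = 0.0291) and that in F1 0.16 (SE 0.05, limma adjusted p = 0.0254), both against B6. Without a filter on low values these limma adjusted p-values were 0.0516 and 0.0523, and with F1 and B6 alone in the fit the second was 0.0539. The rise in 129 was also lost without B6 replicate 1 (limma adjusted p = 0.0819), B6 replicate 2 (0.0716), 129 replicate 1 (0.0689) or 129 replicate 3 (0.0985), and that in F1 without B6 replicate 1 (0.0777), B6 replicate 2 (0.0620) or F1 replicate 3 (0.0861). F1 and 129 did not differ past the threshold (0.01, limma adjusted p = 0.896).

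Lrp10, a short member of the family that takes part in trafficking through the Golgi and endosomes, did not pass in any comparison (mm9 chromosome 14, 55082984 to 55089128, plus strand). It read 38.0, 37.9 and 37.3 RPKM in B6, 34.2, 36.4 and 34.8 in 129, and 37.6, 34.6 and 35.5 in F1. The 129 libraries were all below the B6 libraries, by -0.10 (SE 0.04, limma adjusted p = 0.0911). Lrp8, a reelin receptor that also takes up selenoprotein P, was barely detected (mm9 chromosome 4, 107474864 to 107549445, plus strand). It read 0.254, 0.306 and 0.155 RPKM in B6, 0.159, 0.137 and 0.214 in 129, and 0.171, 0.105 and 0.182 in F1, which were 29 to 70 reads per library, and the groups overlapped.

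Of the 5 other genes of this class that were listed and tested, 2 were lower and 1 higher in 129 than in B6. Over all tested genes 21.7% were lower and 15.9% higher. Lrp3 read 24.6 ± 0.403 RPKM in B6, 16.2 ± 0.791 in 129 and 18.1 ± 0.215 in F1. It fell by 0.57 (SE 0.04, limma adjusted p = 2.25e-06) and Lrp12 by 0.43 (SE 0.05, limma adjusted p = 5.76e-05) in 129. Ldlrad4, known as a negative regulator of TGF-beta signalling, rose by 0.44 (SE 0.07, limma adjusted p = 7.95e-04). Lrp11 did not pass (-0.10, SE 0.06, limma adjusted p = 0.214). The median difference of these 5 genes was -0.10, against -0.03 over all genes. In F1 the count against B6 was 0 higher and 3 lower, beside 11% higher and 20.2% lower over all genes.

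Neither of the Wnt co-receptors Lrp5 and Lrp6 passed between the parents. Lrp6 (mm9 chromosome 6, 134396496 to 134516931, minus strand) read 21.9, 22.5 and 19.9 RPKM in B6, 23.0, 21.9 and 21.5 in 129, and 15.3, 17.8 and 18.9 in F1. Every F1 library was below every parental library, which held for 9.7% of all tested genes. The difference between 129 and B6 was 0.05 (SE 0.07, limma adjusted p = 0.659). F1 was below B6 by -0.29 (SE 0.07, limma adjusted p = 0.0118) and below 129 by -0.34 (SE 0.07, limma adjusted p = 0.00636). It was below the mid-parent by -0.32 on both scales (SE 0.06, limma adjusted p = 0.00544 for log2 and 0.00531 for RPKM). Without a filter on low values the call against B6 was lost (limma adjusted p = 0.0644).

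Lrp5 (mm9 chromosome 19, 3584825 to 3686564, minus strand) read 14.4, 15.5 and 13.7 RPKM in B6, 13.8, 16.6 and 14.7 in 129, and 14.9, 15.8 and 16.1 in F1. The 3 groups overlapped, and no comparison passed, with log2 differences of 0.05 for 129 minus B6, 0.10 for F1 minus B6 and 0.05 for F1 minus 129 (SE 0.07 each). Whether the F1 values of Lrp5 and Lrp6 differ in direction was not tested as a difference between genes.

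Lrp4, a receptor for agrin at the neuromuscular junction and for the Wnt inhibitor sclerostin, was below 1 RPKM throughout (mm9 chromosome 2, 91297688 to 91354058, plus strand). It read 0.331, 0.378 and 0.367 RPKM in B6, 0.719, 0.709 and 0.592 in 129, and 0.241, 0.305 and 0.262 in F1. The reads were 80, 68 and 93 in B6, 161, 190 and 132 in 129, and 90, 153 and 124 in F1. The 129 libraries were above all others and the F1 libraries below all others, a pattern apart from those of Sorl1 and Lrp6. The ratio of mean RPKM in 129 over B6 was 1.88. Lrp4 did not pass the filter and so has no result in the main test. In the fit with no filter, over 24013 symbols, 129 minus B6 was 0.30 (SE 0.03, limma adjusted p = 0.00150), F1 minus 129 was -0.40 (SE 0.03, limma adjusted p = 0.00120) and F1 minus B6 was -0.10 (SE 0.03, limma adjusted p = 0.126).

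Among the 15 tested partners of the Wnt co-receptors, 5 were higher and 1 was lower in 129 than in B6. Over all tested genes 15.9% were higher and 21.7% lower. In F1 minus 129, 0 partners were higher and 8 lower, beside 12% higher and 15.7% lower over all genes. The medians of the list were 0.06 and -0.13, against -0.03 and -0.01 over all genes. Dkk2, a secreted ligand of Lrp5 and Lrp6 that modulates Wnt signalling, rose by 1.27 in 129 (SE 0.07, limma adjusted p = 4.49e-07), from 4.92 ± 0.606 to 13.2 ± 0.880 RPKM, and stood at 8.12 ± 0.397 in F1. The receptor gene Fzd2 rose by 0.42 (SE 0.06, limma adjusted p = 3.85e-04) and Lgr4, a receptor for R-spondins, by 0.20 (SE 0.06, limma adjusted p = 0.0172). Dkk3 fell by 0.20 in 129 (SE 0.06, limma adjusted p = 0.0236) and was lower still in F1, at 1.93 ± 0.147 RPKM against 4.09 ± 0.232 in B6. Its F1 value was below both parents, as for Lrp6. Sost and Sostdc1 were listed at 0 in every library.

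Of the 6 tested members other than Sorl1, 1 was higher (Vldlr), 1 was lower (Sort1) and 4 did not pass between 129 and B6. Over all tested genes 37.5% passed, 15.9% higher and 21.7% lower. Their median difference was 0.01, against -0.03 over all tested genes. Sorl1 is left out of the further counts too, because they use the parental libraries that chose it. In F1 minus B6, 3 of these 6 members passed, 1 higher (Vldlr) and 2 lower (Sort1 and Lrp6), beside 31.2% of all genes, 11% higher and 20.2% lower. The median was -0.18 against -0.04. In F1 minus 129, 1 of 6 passed, Lrp6, which was lower, beside 27.7% of all genes, 12% higher and 15.7% lower. The median was 0.02 against -0.01. Against the mid-parent, 3 of 6 passed on either scale, all lower (Sort1, Lrp1 and Lrp6). On the log2 scale this stands beside 23.2% of all genes, 8.35% higher and 14.8% lower, and on the RPKM scale beside 23.7%, 7.52% higher and 16.2% lower. These comparisons share libraries, so their counts are not independent.

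**Figure D4:**
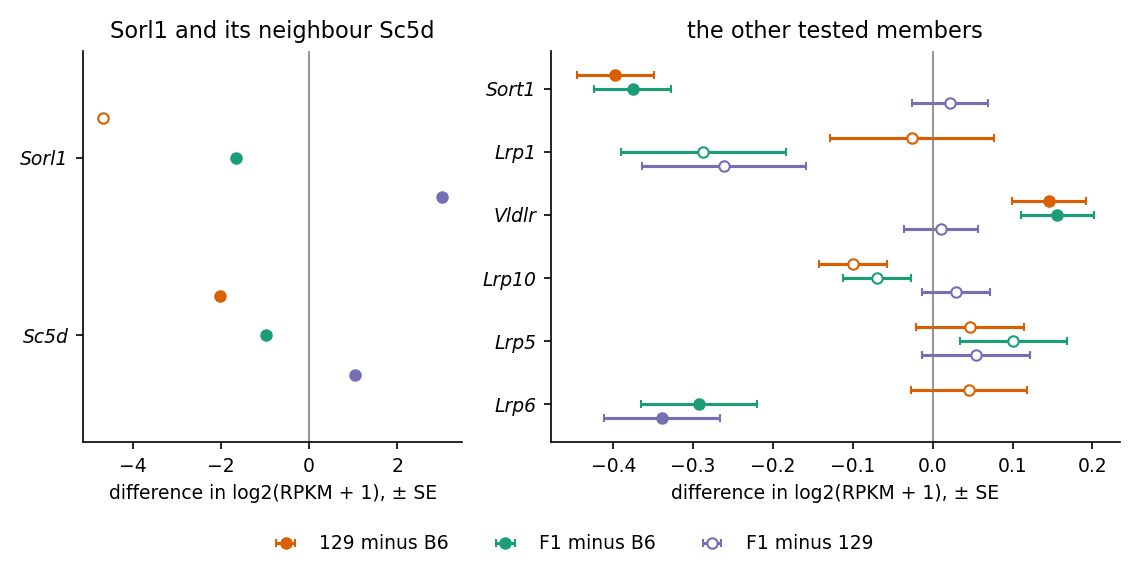
Differences in log2(RPKM + 1) ± SE for 129 minus B6, F1 minus B6 and F1 minus 129, at left for Sorl1 and its neighbour Sc5d and at right, on a finer scale, for the 6 other tested members. Filled points have an adjusted p under 0.05, and open points do not or, for Sorl1 in 129 minus B6, were not tested. Sort1 and Vldlr move in both comparisons with B6, and Lrp6 in both comparisons with F1.

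Chaperones, adaptors and sorting genes act on the receptors after they are made. Of 7 tested chaperones and adaptors 1 was higher and 1 lower in 129, and after rescaling the libraries 2 were higher and 1 lower. Mylip, a ubiquitin ligase that marks receptors of the family for degradation, fell by 0.33 (SE 0.04, limma adjusted p = 1.70e-04). The adaptor Gulp1 rose by 0.52 (SE 0.06, limma adjusted p = 6.17e-05). The adaptors Dab2 and Shc1 did not pass, at 0.14 and -0.05 (limma adjusted p = 0.0581 and 0.340). Of the 19 retromer and endosome to Golgi genes 5 were higher and 3 lower, beside 15.9% higher and 21.7% lower over all genes, with a median of -0.02 against -0.03 over all genes. After rescaling 5 were higher and 1 lower. The rises were small, with Hspa12a, whose protein binds SorLA, at 0.28 (limma adjusted p = 0.00356), Snx1 at 0.21 (0.00419), Snx5 at 0.19 (0.00401) and the retromer subunit gene Vps26b at 0.17 (0.00940).

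Of 18 tested genes for ligands of these receptors 3 were higher and 5 lower in 129 than in B6. This stands beside 15.9% higher and 21.7% lower over all genes. Apoe, which encodes a lipoprotein ligand of Vldlr, Lrp1 and Lrp8, read 119 ± 10.5 RPKM in B6, 1122 ± 49.6 in 129 and 642 ± 43.8 in F1, a difference between the strains of 3.23 (SE 0.07, limma adjusted p = 3.64e-10). Thbs2, a matrix glycoprotein taken up through Lrp1, rose by 1.14 (SE 0.08, limma adjusted p = 1.16e-06). Haptoglobin (Hp) fell by 1.07 (SE 0.07, limma adjusted p = 1.42e-06) and Ctgf by 0.85 (SE 0.06, limma adjusted p = 1.48e-06). The median of the list was -0.11, against -0.03 over all genes. Lpl, the lipase that sortilin and SorLA bind, did not pass (-0.12, limma adjusted p = 0.246).

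Of the 8 genes for the GLUT4 vesicle and the insulin receptor, 2 were higher and 5 lower in 129, with a median of -0.25 against -0.03 over all genes. This stands beside 15.9% higher and 21.7% lower over all genes. After rescaling 2 of the 8 were higher and 4 lower, with a median of -0.21. Tbc1d4 encodes AS160, the Rab GTPase-activating protein that restrains GLUT4 vesicles until insulin signals. It fell by 1.26 (SE 0.05, limma adjusted p = 1.75e-08), from 21.0 ± 0.562 to 8.17 ± 0.157 RPKM, and F1 stood between at 13.8 ± 0.868. Insr, the insulin receptor, fell by 0.45 (SE 0.05, limma adjusted p = 8.13e-05) and Irs2 by 0.51 (SE 0.08, limma adjusted p = 3.63e-04), while Irs1 rose by 0.34 (SE 0.05, limma adjusted p = 3.76e-04). Slc2a4, the GLUT4 gene itself, fell by 0.36 (SE 0.06, limma adjusted p = 7.47e-04) in 129 and did not pass in F1 against B6 (-0.06, limma adjusted p = 0.452).

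Of 12 tested genes for APP and its processing 0 were higher and 4 lower in 129, but after rescaling 1 was higher and 2 lower. Before rescaling their median was -0.11 against -0.03 over all genes, of which 15.9% were higher and 21.7% lower. The falls were small: the gamma-secretase genes Aph1b and Ncstn fell by 0.38 and 0.27 (limma adjusted p = 3.55e-04 and 0.00156), the beta-secretase gene Bace1 by 0.18 (0.0182) and the APP relative Aplp2 by 0.14 (0.0397). Of 7 tested genes of the sterol response driven by SREBP2, 0 were higher and 5 lower in 129. Their median was -0.18, against -0.03 over all genes. They include Sc5d, the neighbour of Sorl1, as well as Fdft1, Idi1 and Insig1, which fell by 0.55, 0.38 and 0.18 (limma adjusted p = 9.24e-07, 1.94e-04 and 0.0145). Sc5d fell by more than these 3, and after rescaling 0 of the list were higher and 4 lower. Hmgcs1 was listed at 0 in every library.

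**Figure D5:**
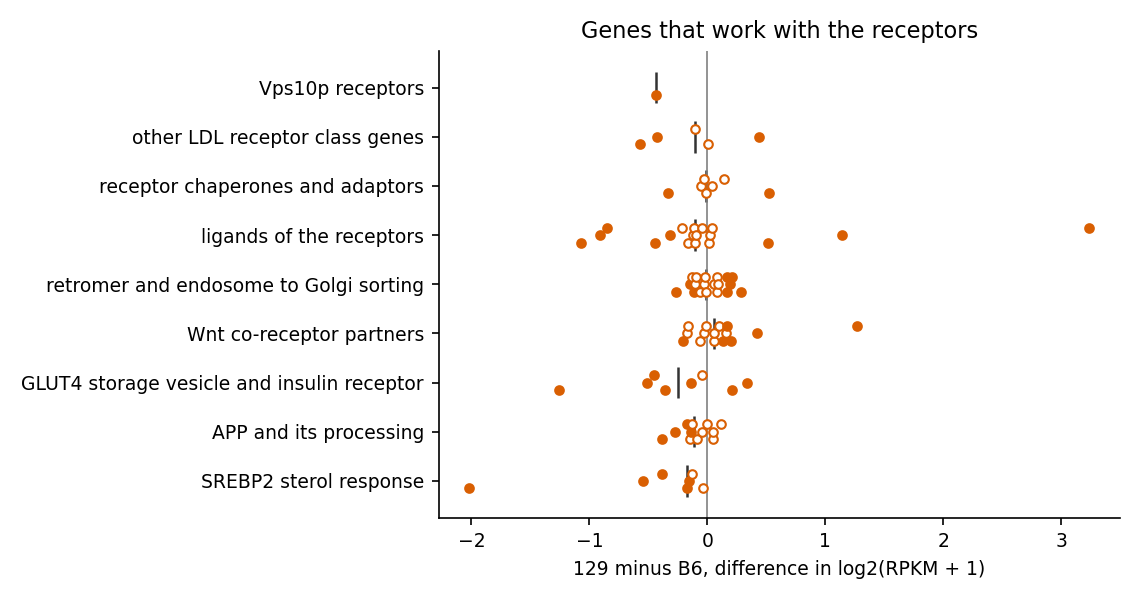
Difference of 129 minus B6 in log2(RPKM + 1) for the tested genes of each list of partners, with 1 point per gene, a bar at the list's median and filled points for an adjusted p under 0.05. The 9 members are left out. Apoe at 3.23 is the point farthest right, Sc5d at -2.02 the point farthest left, and the list medians lie between -0.44 and 0.06.

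The genes whose level followed that of Sorl1 most closely over the 9 libraries were sought among the 289 tested genes whose group means spanned at least 1 log2 unit. The 5 with the highest Pearson r were Sema3f (0.998), Adh1 (0.996), Myo7a (0.994), Trub1 (0.994) and Radil (0.993). They encode a secreted semaphorin, an alcohol dehydrogenase, an unconventional myosin, a pseudouridine synthase and a Rap-binding protein. Each was highest in B6, intermediate in F1 and lowest in 129, and Adh1 for example had means of 244.7 ± 8.77, 143.9 ± 9.27 and 55.4 ± 1.56 RPKM in that order. Sc5d was 18th in rank among them, with an r of 0.987. With 3 groups the correlation mostly reads the order and spacing of the group means, and 61 of the 289 genes had an r above 0.95. None of the 5 was among the top 5 by Spearman's rho, where Tbc1d4 was first with a rho of 0.983. Tbc1d4 was named here after its rank was seen.

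Markers of other cell types differed between the groups as well. The counts below stand beside shares over all tested genes of 15.9% higher and 21.7% lower in 129 minus B6. These shares were 11% higher and 20.2% lower in F1 minus B6, and 12% higher and 15.7% lower in F1 minus 129. The endothelial list, of which 2 of 6 genes were tested and both fell in 129, had a summed RPKM of 5.41 to 6.61 in B6, 2.81 to 3.58 in 129 and, for F1, 4.12 to 4.43, in the order of Sorl1. The neuronal and glial list, in which 2 of 8 genes were tested and only Tubb3 fell, summed to 6.97 to 9.82, 2.91 to 3.05 and 3.96 to 4.43. The defining endothelial genes Cdh5, Kdr, Emcn and Vwf and the neuronal genes Rbfox3, Snap25 and Syt1 were too low to test. The part of both lists in the difference of Sorl1 was not tested. The progenitor list, in which 3 of 6 tested genes were higher and 1 lower in 129 than in B6 and 4 of 6 lower in F1 than in 129, summed to 449 to 595 in B6, 473 to 493 in 129 and, for F1, 332 to 413, and the smooth muscle and pericyte list to 129 to 144, 128 to 137 and 99.95 to 106. Of the 5 tested smooth muscle and pericyte genes 3 were lower and 0 higher in 129 than in B6 (median -0.69), 5 were lower in F1 than in B6 and 2 were lower in F1 than in 129. The sums of both lists were lowest in F1, as was Lrp6, and most smooth muscle and pericyte genes were also lower in 129, as was Sorl1. Their part in the values of Sorl1, Lrp6 and Lrp1 was not tested. Macrophage markers summed to 42.8 to 53.5 in B6, 21.0 to 46.2 in 129 and, for F1, 37.6 to 54.8, and lymphocyte markers to at most 0.397 in any library. Mast cell markers summed to 2.40 to 2.78, 54.2 to 62.6 and 25.5 to 31.8. Of 8 such genes 2 were tested, and they moved in opposite directions in 129. Tpsab1 rose, from a mean of 0.0208 RPKM in B6 to 56.0 ± 4.69 in 129 and 26.0 ± 3.43 in F1, and Cpa3 fell, from 2.34 ± 0.155 to 1.70 ± 0.297 (limma adjusted p = 2.22e-11 and 0.0144). Tpsb2 and Ms4a2 were at 0 and Cma1, Mcpt4, Kit and Fcer1a were too low to test. The sums of mesothelial and epithelial markers were 7.84 to 8.98, 15.0 to 17.5 and 15.1 to 17.7. Of 6 such genes only Krt19 was tested, and it rose by 0.88 in 129 against B6. The others, Msln, Upk3b, Krt8, Krt18 and Epcam, were too low to test. The sums of the mast cell and of this list were higher in 129 and F1 than in B6, as was Apoe, and their part was not tested. Adipocyte markers summed to 26816 to 30767, 30986 to 33279 and 34934 to 37281. Of these 8 genes, all tested, 1 was higher and 1 lower in 129 than in B6. In F1, 3 were higher and 0 lower than in B6, and 2 were higher and 2 lower than in 129.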

How the data were processed

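Poly(A) RNA libraries made with a stranded kit, per the labels' protocols, were aligned with STAR to mm9, per the submitters' processing notes. Versions, the counter, its use of strand and the annotation: not given in the sources used here. The authors deposited 1 RPKM value per gene and library, scaled to the reads assigned to genes. The mm9 genome is that of C57BL/6J, and whether 129 reads were lost in alignment was not tested. The deposited steps gave back whole reads (tolerance 0.1) for 100% of non-zero values, which serve as depth. Replicate pairs varied by 3.83 to 15.1 times counting error (chi-square over degrees of freedom), so none was a copy. No exon of a member overlapped another gene's exon.

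Genes reaching 1 RPKM in 3 or more of the 9 libraries were fitted with limma 3.58.1 (R 4.3.3) on log2(RPKM + 1), with 1 mean per group and a mean-variance trend. The fit was tested on simulated data. Folds of genes near 1 RPKM are understated. F1 was also set against the parental mean of log2 values and of RPKM, the latter by the delta method. Alternatives were a pseudocount of 0.1, no filter, a mean RPKM of at least 5, median-of-ratios rescaling, voom on recovered reads, a replicate block, 2-group fits and leaving out each library. Of the genes named, all 9 members, tested neighbours within 500 kb, up to 4 genes per list with the smallest p in 129 minus B6 and the 5 genes most like Sorl1 followed a rule (predicted genes and clones left out of the last), and Slc2a4, Lpl and others were added after their values were seen. Members and lists were chosen with earlier results of these data known. The lists are the relatives, chaperones, ligands, sorting genes and markers described in the results. Some genes of these lists are not reported here.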

Additional observations from a re-analysis of the deposited data

How the results depend on the processing

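In every alternative run, Sorl1 kept its direction and its side of the threshold in the 4 comparisons with F1, and Sort1 and Sc5d kept their falls in 129 and in F1 against B6. For Sorl1 this is no independent support, because all 4 comparisons use parental libraries that chose it. For 129 minus B6, Sorl1 was -4.64 with rescaling, -6.38 with a pseudocount of 0.1 and -6.80 with voom on recovered reads. Median-of-ratios rescaling reversed only differences near 0: for 129 minus B6 Lrp1 0.0113 and Tbcel 0.0045, for F1 minus 129 2610203C20Rik 0.0118, for F1 minus the log2 mid-parent Lrp10 0.0177 and 2610203C20Rik 0.033, and for the RPKM mid-parent Lrp10 0.0174 and 2610203C20Rik 0.0329. The cause was not tested. Rescaling changed the split of all calls into higher and lower from 1834 and 2499 to 2257 and 1995 in 129 minus B6, from 1270 and 2329 to 1904 and 1591 in F1 minus B6, from 964 and 1712 to 1425 and 1250 against the log2 mid-parent, and from 868 and 1870 to 1309 and 1356 against the RPKM mid-parent.

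With Sorl1 counted, 4 of 7 tested members passed in F1 minus B6, beside 31.2% of all tested genes. With no filter 2 of 9 passed, a set that adds Lrp4 and Lrp8, so the counts are not like for like. Counts that include Sorl1 are not independent of its choice on the parental libraries. Leaving out single libraries gave 1 to 2 of 6 members called in 129 minus B6, beside 3532 to 4487 of all 11542 tested genes. Against the log2 mid-parent it gave, with Sorl1 counted, 2 to 4 of 7 members, beside 1799 to 3048 of all tested genes. The direction of differences near 0 reversed within the ranges given next. For 129 minus B6 they were -0.1022 to 0.0488 for Lrp1, -0.0234 to 0.1031 for Lrp5, -0.0049 to 0.0809 for Lrp6 and -0.0557 to 0.0668 for 2610203C20Rik, which in F1 minus B6 ran from -0.0626 to 0.0599. For F1 minus 129 they were -0.0285 to 0.0607 for Sort1, -0.0313 to 0.0375 for Vldlr, -0.0022 to 0.1243 for Lrp5, -0.0044 to 0.0558 for Lrp10 and -0.0447 to 0.0537 for 2610203C20Rik. Against the log2 mid-parent they were -0.0541 to 0.006 for Lrp10, -0.0348 to 0.0273 for 2610203C20Rik and -0.0032 to 0.0504 for Sc5d, and against the RPKM mid-parent -0.055 to 0.0051 for Lrp10 and -0.035 to 0.027 for 2610203C20Rik.

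The labels do not tell whether same-numbered libraries share more than a number. The correlations of their deviations ran from -0.192 to 0.215, and those of different-numbered libraries from -0.203 to 0.231. These correlations cannot show whether the numbers mark a shared batch. With the replicate number as a block, 4267 genes were called in 129 minus B6, 3546 in F1 minus B6 and 3066 in F1 minus 129, against 4333, 3599 and 3200 without it. Under the block Lrp1 passed in F1 minus B6 (-0.29, limma adjusted p = 0.0136) and in F1 minus 129 (-0.26, limma adjusted p = 0.0230). The block changed no other call of a member or tested neighbour.

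Depth limits Lrp8, with 29 to 70 reads per library, and Sorl1 in 129, with 43 to 57. With 3 libraries a group, a p above the threshold does not show that levels were equal.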
